A study of Schizosaccharomyces pombe with 12 samples.

Results

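The transcript response of fission yeast (Schizosaccharomyces pombe) to 1 h at 40 °C was compared between wild-type cells (WT) and cells lacking a subunit of the histone chaperone complex HIRA. The comparison used 6 of 12 microarrays, 1 for each of 3 strains in 2 conditions. WT cells were h-, leu1-32, ura4-D18, and the mutants slm9D and hip1D carried in addition slm9::ura4 or hip1::ura4, so both mutants, and not WT, bore the ura4 marker, while all strains shared leu1-32 and ura4-D18. Cells in YES medium at 32 °C were either left unstressed or moved to 40 °C. Moving the cells to 40 °C is called a priming stress in the labels, and the title asks what HIRA does when cells meet a low-dose stress. The other 6 arrays, from cells given 25 mM H2O2 for 1 h with or without the 40 °C step before it, entered the fit for its estimate of the spread. For each of the 2917 probe sets with exactly 1 S. pombe gene (2899 genes), out of 10928 on the array, the difference of the response was taken. It is the mean over slm9D and hip1D of the log2 level at 40 °C minus the unstressed level, less the same quantity in WT. It equals the mutant minus WT difference at 40 °C minus the mutant minus WT difference in unstressed cells, so a response can differ through its start, its end, or both.

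HIRA places histones H3 and H4 on DNA outside of replication. Slm9 and Hip1 are both HirA-like subunits of the fission yeast complex, which is known for keeping many genes silent in growing cells and for restraining histone genes outside S phase. Heat activates the stress kinase Sty1 and its transcription factor Atf1 as well as heat shock factor, and a set of general stress genes then rises while genes of growth and division fall.

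The levels of slm9, hip1 and ura4 were checked first. slm9 read log2 9.49 unstressed and 9.68 at 40 °C in WT, 9.80 and 9.74 in hip1D, and 5.15 and 5.39 in slm9D. hip1 read 8.36 and 8.41 in hip1D against 9.33 and 9.42 in WT and 9.42 and 9.73 in slm9D, so its signal in the deletion strain was lower than in the others but far above background, and where its probes lie relative to the deletion was not analysed here. ura4 read 4.16 and 4.76 in WT and between 11.17 and 11.81 on the 4 mutant arrays. On the 6 arrays the median log2 level over S. pombe genes ran from 9.51 to 9.57. A control probe set for the middle of the 28S rRNA read 10.21, 10.73 and 10.63 unstressed and 9.62, 10.3 and 10.61 at 40 °C (WT, slm9D, hip1D), and the 3' minus 5' signal of the 18S rRNA control read -1.57 in WT at 40 °C against -0.01 and -0.25 in the mutants, after -1.36, -1.1 and -1.16 unstressed. The part of these control differences in the results was not tested. The labels do not say that samples came from separate cultures, and each condition has 1 WT array, so a p-value here measures only array-to-array spread, taken from slm9D against hip1D, and the WT arrays are assumed to vary alike. In bulk RNA, a level per cell and a share of cells that express a gene cannot be told apart.

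Genes of 2 kinds stood out in the difference of the response. One kind was induced by heat in WT and was already high in unstressed mutants, such as zym1, which encodes the metallothionein. The other kind was lowered by heat in WT but changed little or rose in the mutants, such as nc-pho1, the non-coding RNA of the pho1 acid phosphatase locus, the heme synthesis gene hem1, and the histone gene hta2. limma called 662 of 2917 probe sets (22.7%) with a higher, and 524 (18%) with a lower, response in the mutants at an adjusted p under 0.05. With the further demands of at least a 2-fold difference (1 on the log2 scale) and the same sign in both mutants, 55 probe sets of 53 genes were higher (1.89%) and 45 of 43 genes lower (1.54%). These counts rest on the spread between the mutants. When the spread also took in how far WT departed from the mutants differently in the H2O2 conditions, limma called 14 higher and 1 lower. Those 15 included hem1, cfr1, ubp11 and sap1, and every call of a difference of the response outside the 15 was lost.

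The 55 and the 45 differed in shape. Of the 45 with a lower response, 44 rose at least 2-fold in WT, with a median WT response of 2.06 against 0.82 in the mutants, and 44 were called higher in unstressed mutants. By sign alone, 40 of the 45 had a positive response in WT and in the mutants' mean (1146 of all 2917), and 5 a positive one in WT and a negative one in the mutants (221). Of the 55 with a higher response, 31 were negative in WT and positive in the mutants (389 of all), 16 negative in both (1161) and 8 positive in both (1146), with medians of -0.75 in WT and 0.50 in the mutants, and 51 were called higher in mutants at 40 °C. These signs include responses that did not pass a test of their own. Over all probe sets limma called 778 higher (26.7%) and 1041 lower (35.7%) in unstressed mutants, and 863 higher (29.6%) and 1024 lower (35.1%) at 40 °C. The difference that chose the 55 and the 45 is made of these same values, so the counts describe the chosen probe sets and nothing is read from them against the background. The absolute gap between the responses of slm9D and hip1D, from which WT cancels, had a median of 0.12 among the 45, 0.09 among the 55 and 0.08 over all probe sets. The demand for the same sign in both mutants removed 0 probe sets.

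**Figure D1:**
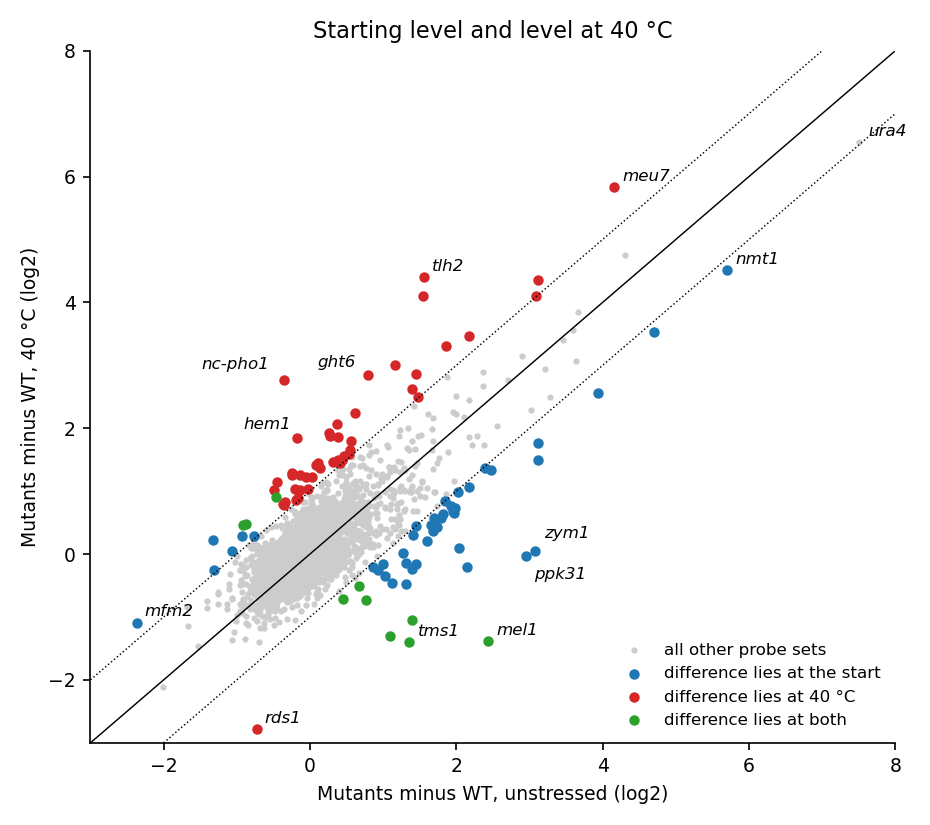
Each point is a probe set, with the mean of both mutants minus WT in unstressed cells on the x axis and at 40 °C on the y axis, in log2 units. The solid line marks an equal difference in both conditions and the dotted lines a 2-fold difference of the response. Coloured points are the 100 probe sets with a called, at least 2-fold difference. Those with a higher response lie above the lines, mostly near 0 on the x axis, and those with a lower response below them, mostly to the right of 0.

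The 100 probe sets were divided by where the difference lay. It was placed at the start where the unstressed difference was called and at most 0.33 of the difference of the response was found at 40 °C, at 40 °C where the difference there was called and made up at least 0.67 of it, and at both otherwise. Among lower responses 37 probe sets (35 genes) lay at the start, 7 at both and 1 at 40 °C. Among higher responses 6 lay at the start, 3 at both and 46 (44 genes) at 40 °C. The 37 at the start use the single unstressed WT array, and the 46 at 40 °C use the single WT array at 40 °C. With quantile normalization repeated on the S. pombe probe sets, the lower responses divided into 20 at the start, 12 at both and 4 at 40 °C, and with the wider spread the only filled classes were 1 higher probe set at the start and 7 at 40 °C.

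The largest lower response placed at the start was that of zym1, whose product binds zinc and other metals. It read 9.21 in unstressed WT against 12.17 in slm9D and 12.41 in hip1D, and 13.38, 13.39 and 13.45 at 40 °C in the same order. Both unstressed mutants were above unstressed WT, and the 3 strains met at 40 °C. The gene rose by 4.17 in WT and by 1.13 in the mutants, a difference of -3.04 ± 0.09 (SE, limma, adjusted p = 4.81e-15), and the levels at 40 °C differed by 0.05 ± 0.06. ppk31, a predicted protein kinase gene, did the same, at 5.41 in unstressed WT, 8.32 and 8.39 in the unstressed mutants, and 9.92, 9.93 and 9.85 at 40 °C (WT, slm9D, hip1D). Its difference of the response was -2.98 ± 0.12. pcm2, which encodes a protein repair methyltransferase acting on isoaspartate, read 4.74 in unstressed WT against 6.78 and 6.99, and 9.68 at 40 °C against 9.55 and 9.42. For pcm2 too WT stood apart from the mutants in unstressed cells and was close to them at 40 °C.

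Other members of the class had smaller differences. gst2, a glutathione S-transferase gene, read 10.68 in unstressed WT against 12.01 in slm9D and 12.26 in hip1D, and 12.70, 12.54 and 12.55 at 40 °C. mug147 read 6.82 in unstressed WT against 8.17 and 8.24, and 10.11, 9.93 and 9.80 at 40 °C. mag2, a DNA glycosylase gene of base excision repair, had a difference of -1.59 ± 0.13, but its levels differed between the mutants. mag2 read 7.12 in slm9D and 8.05 in hip1D against 6.46 in WT unstressed, and 9.12 and 10.15 against 10.10 at 40 °C, so the WT level at 40 °C lay between those of the mutants. gst1, another glutathione S-transferase gene, rose by 1.87 in WT and 0.48 in the mutants from a start that was 1.60 higher, a case chosen after its values were seen, like the vacuolar mannosidase gene ams1 (1.26 in WT, -0.04 in the mutants, start 1.73 higher), the checkpoint kinase gene chk1 (1.84, 0.68 and 1.93) and the RNAi nuclease gene dcr1 (1.35, 0.31 and 2.03).

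Not every gene of the start class met WT at 40 °C. Of the 37 with a lower response, 29 lay within 2-fold of WT at 40 °C and 8 were still at least 2-fold higher in the mutants. At 40 °C limma called 21 of them higher, 7 lower and 9 in neither direction, where 29.6% of all probe sets were called higher and 35.1% lower. nmt1, a thiamine synthesis gene, read 9.42 and 9.66 in the unstressed mutants and 9.94 and 10.03 at 40 °C, against 5.47 in WT at 40 °C and a WT signal not well above background unstressed. It was 4.51 ± 0.08 higher in the mutants at 40 °C. meu17, a gene raised in meiosis, read 4.79 in unstressed WT and 7.09 at 40 °C, against 7.87 and 7.95 rising to 8.56 and 8.62 in slm9D and hip1D. Both mutants were above the single WT array for meu17 at either temperature, on the same values that chose the gene. Of the 37, 8 had an unstressed WT signal not well above background. Setting that signal to the background level brought 4 of them (wtf3, rem1, meu1 and mcp3, named after their values were seen) under 2-fold.

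wtf genes, the spore killer family of fission yeast, made up 7 of these 37 probe sets. One wtf20 probe set read 4.96 in unstressed WT against 6.89 and 7.12, and 6.84 at 40 °C against 6.88 and 7.01. WT reached the mutants' level at 40 °C, while the mutants' own response was -0.06 against 1.88 in WT. For wtf10, whose unstressed WT signal was not well above background, the difference with the background in its place was -1.34. Over the 21 wtf probe sets tested (16 genes, a group formed after their values were seen), limma called 18 with a lower and 0 with a higher response, with a median difference of -0.62 against 0.02 over all probe sets. Of all probe sets 18% were called with a lower and 22.7% with a higher response. The wtf medians of the mutant minus WT difference were 0.79 unstressed and 0.18 at 40 °C. wtf genes are related in sequence, and a probe set may read several of them.

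**Figure D2:**
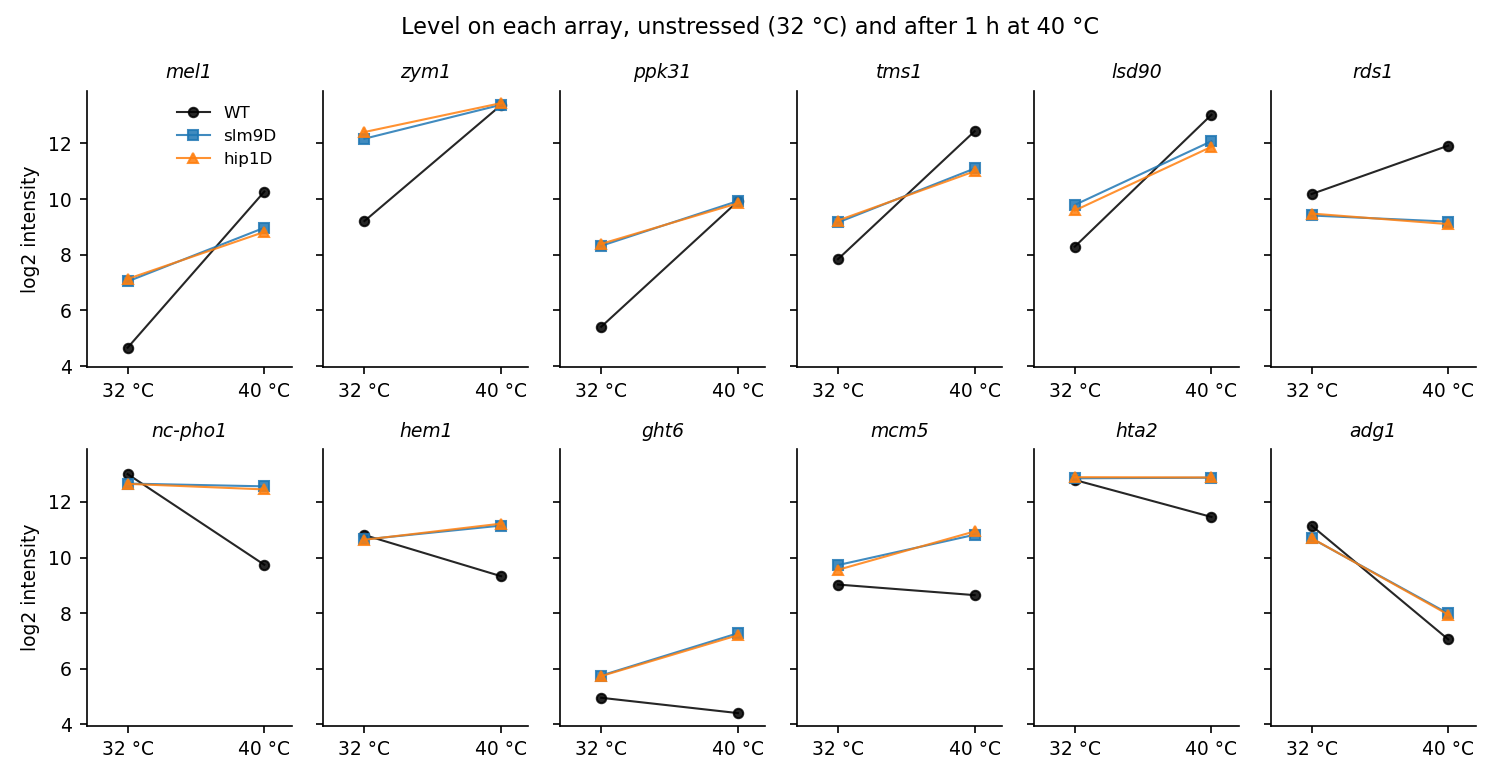
Log2 intensity of 12 genes on the 6 arrays, unstressed at 32 °C and after 1 h at 40 °C, with 1 line per strain and 1 array per point. In the top row zym1 and ppk31 differ between WT and the mutants unstressed and meet at 40 °C, mel1, tms1 and lsd90 cross between the temperatures, and rds1 is farther apart at 40 °C. In the bottom row the WT point lies below the mutant points at 40 °C.

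In a second group the mutants started above WT and ended below it. mel1, the alpha-galactosidase gene, read 4.66 in unstressed WT against 7.04 in slm9D and 7.13 in hip1D, and 10.27 at 40 °C against 8.97 and 8.82. The order of the strains turned over between the temperatures, on the same values that chose the gene and with a single WT array at each. mel1 rose by 5.61 in WT, more than any other probe set, and by 1.81 in the mutants. Its difference of -3.80 ± 0.13 was the lowest of all probe sets (limma, adjusted p = 5.24e-14). tms1, a predicted hexitol dehydrogenase gene, read 7.84 against 9.16 and 9.23 unstressed, and 12.44 against 11.10 and 11.00 at 40 °C. The stress gene lsd90 read 8.29 against 9.79 and 9.59, and then 13.03 against 12.08 and 11.88. eno102, an enolase gene, read 7.97 against 9.07 and 9.05, and then 12.01 against 10.70 and 10.71. In tms1, lsd90 and eno102 likewise, both mutants were above WT before heat and below it after. At 40 °C the mutants' mean minus WT was -1.40 ± 0.07 for tms1, -1.04 ± 0.07 for lsd90 and -1.30 ± 0.08 for eno102 (SE). The other members were meu10, ish1 and dli1, the last named after its values were seen. The meu10 signal was not well above background in unstressed WT, and its unstressed difference of 0.77 became -0.12 with that repeated quantile normalization.

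rds1 was the 1 probe set with a lower response placed at 40 °C. The gene, known as a stress-responsive one, read 10.18 in unstressed WT against 9.41 and 9.48 in the mutants, and 11.92 at 40 °C against 9.19 and 9.10. It rose by 1.74 in WT and fell by 0.30 in the mutants, with a mutant minus WT difference of -2.78 ± 0.07 at 40 °C (limma, adjusted p = 6.81e-17) and -0.73 unstressed. Its 2 WT values both lay above all 4 mutant values, which are the same values that chose the gene.

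The largest higher response was that of nc-pho1. Its levels before heat were 13.00 (WT), 12.66 (slm9D) and 12.65 (hip1D), and at 40 °C they were 9.74, 12.56 and 12.45. The WT array at 40 °C was the low one, with the other 5 close together. nc-pho1 fell by 3.26 in WT and fell by 0.14 in the mutants, a difference of 3.12 ± 0.08 (limma, adjusted p = 3.72e-16). hem1, which encodes 5-aminolevulinate synthase, the first enzyme of heme synthesis, read 10.81, 10.65 and 10.64 unstressed, and 9.33 in WT against 11.15 and 11.22 at 40 °C. It fell by 1.48 in WT and rose by 0.54 in the mutants, and its call was among the 15 kept with the wider spread. ght6, a hexose transporter gene, read 4.96 against 5.76 and 5.74 unstressed and 4.41 against 7.28 and 7.21 at 40 °C. Its unstressed difference of 0.79 became -0.10 with the repeated quantile normalization.

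Further large higher responses came from single genes of varied function. mcm5, a subunit of the replicative helicase, read 9.03 against 9.73 and 9.56 unstressed and 8.65 against 10.82 and 10.94 at 40 °C. cdc1, a DNA polymerase delta subunit gene, read 9.37 against 9.66 and 9.81, and then 8.95 against 10.98 and 11.04. cfr1, encoding an exomer component of Golgi sorting, read 9.07 against 9.29 and 9.38, and then 8.54 against 10.43 and 10.50. For mcm5, cdc1 and cfr1 the strains were less than 1 log2 unit apart before heat and about 2 apart after it, with WT going down and the mutants going up. The difference of the response was 1.62 for mcm5. It was 0.04, 0.34, 0.26, -0.06 and 0.04 for mcm2, mcm3, mcm4, mcm6 and mcm7, which were named after their values were seen. The gene ubp11, for a ubiquitin hydrolase, read 8.98 against 8.63 and 8.83 before heat, and 8.30 against 9.52 and 9.67 after it. fet4, a metal ion transporter gene, changed by -1.35 in WT and by 0.24 in the mutants. The corepressor gene tup11 read 9.95 against 10.43 and 10.56 unstressed and 9.74 against 11.35 and 11.45 at 40 °C, and ssn6, named after its values were seen, changed by -1.09 in WT and 0.29 in the mutants. The paralogue tup12, also named after its values were seen, had a difference of the response of 0.08, and its mutant minus WT difference was -0.49 unstressed and -0.41 at 40 °C.

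Some genes of the 40 °C class were already higher in unstressed mutants and moved farther from WT. Of the 46 with a higher response, limma called 26 higher, 10 lower and 10 in neither direction unstressed. Over all probe sets 26.7% were called higher and 35.7% lower unstressed. Among the 46, 11 were at least 2-fold higher in unstressed mutants. meu7, a gene raised in meiosis, read 7.14 against 11.27 and 11.33 unstressed and 6.74 against 12.51 and 12.61 at 40 °C. rec10, which encodes a component of meiotic linear elements, read 6.10 against 9.15 and 9.30, and then 5.60 against 9.90 and 10.03. The str3 gene, for a transporter of iron compounds, read 5.36 against 6.45 and 6.58, and at 40 °C 6.66 in both mutants while WT was not well above background, which gave a difference of at least 1.78. tlh2, a telomeric helicase gene, disagreed between its probe sets. One read 7.79 against 9.07 and 9.60 unstressed and 4.98 against 8.93 and 9.23 at 40 °C, a difference of 2.55 ± 0.13. Another, not well above background in WT at 40 °C, gave at least 2.52, and the remaining ones gave -0.02 ± 0.14 and -0.14 ± 0.43. tlh genes are near-identical copies at chromosome ends, so the probe sets may read different copies.

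A few higher responses lay at the start. mfm2, a precursor gene of the M-factor pheromone, read 10.21 against 7.76 and 7.92 unstressed and 10.17 against 8.91 and 9.24 at 40 °C. Its WT level was nearly the same in both conditions and the mutants rose toward it without reaching it. mfm3 and mfm1, named after their values were seen, did not share this. The mfm3 probe sets started 0.72 and 0.51 higher in the mutants, with differences of the response of -0.49 and -0.30. Those of mfm1 started 0.44 and 0.12 higher, and their differences of 0.33 and 0.33 were not called. mug115 read 6.33 against 5.06 and 4.97, and then 6.79 against 7.12 and 6.92. The other members were fic1, sap1, rnc1 and vtc4, the last named after its values were seen, and they changed by -1.31, -1.59, -0.92 and -1.29 in WT and by -0.10, -0.48, 0.13 and -0.24 in the mutants. The 3 probe sets placed at both were adg1 and eng1 of cell separation and the mitotic inhibitor kinase gene mik1, for which the difference at 40 °C of 0.48 became -0.31 with the repeated quantile normalization.

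**Figure D3:**
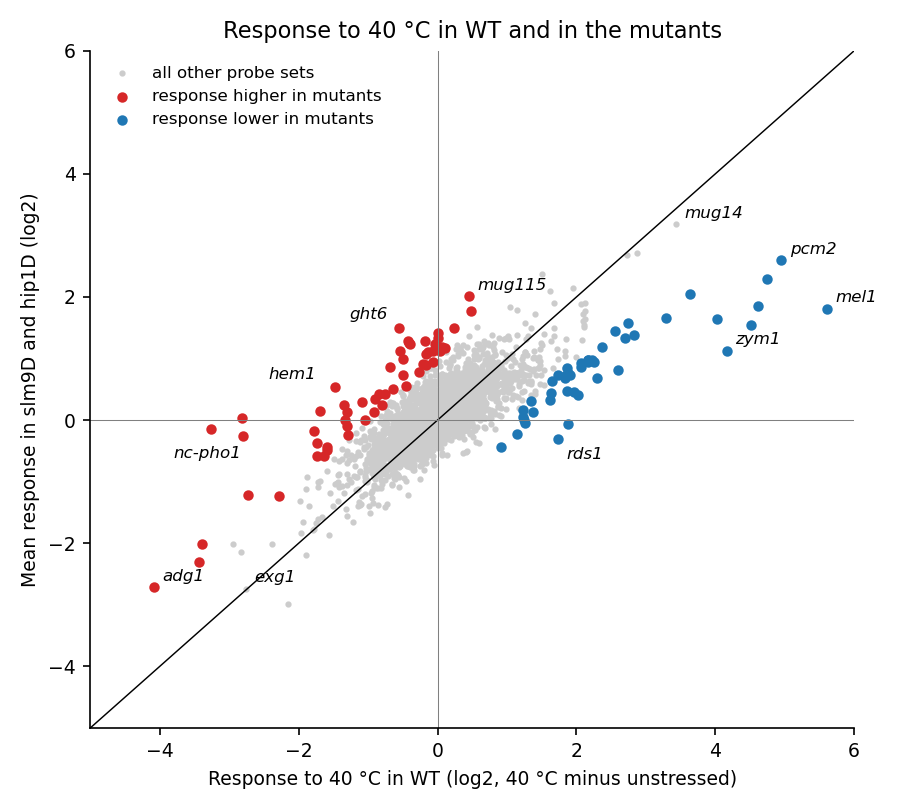
The response to 40 °C (log2, 40 °C minus unstressed) in WT on the x axis and averaged over slm9D and hip1D on the y axis, 1 point per probe set, with a line of equal responses. The blue points, with a lower response in the mutants, lie at WT rises, and the red points, with a higher response, lie around and to the left of 0. mug14 and exg1 lie by the line.

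The response was then described from each side, since the choice of genes by WT shares the WT arrays with the difference and the choice by the mutants shares theirs. In WT 168 probe sets rose at least 2-fold (5.76%) and 112 fell (3.84%), and in both mutants 107 rose (3.67%) and 59 fell (2.02%). The mutants' sets needed 2-fold in each mutant and the WT sets in WT alone, so the sizes and shares are not like for like. The sets that rose shared 54 probe sets, 32.1% of the WT set and 50.5% of the mutants' set, and those that fell shared 42, or 37.5% and 71.2%. Among the 168, limma called the rise smaller in the mutants for 119 and larger for 5, with a median of 1.39 in WT and 0.85 in the mutants. The medians of the mutant minus WT difference were 0.82 unstressed and 0.11 at 40 °C. Among the 107 chosen from the mutants, the rise was called smaller than in WT for 25 and larger for 52. Among the 112 that fell in WT the fall was called smaller in the mutants for 74 and larger for 7, and among the 59 that fell in the mutants for 17 and 20. With the wider spread limma called at most 3 in any of these groups.

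Several strong responders did not pass the test of the difference. mug14 read 7.64, 8.08 and 8.41 before heat and 11.07, 11.24 and 11.62 at 40 °C in WT, slm9D and hip1D, rising by 3.43 in WT and 3.18 in the mutants. Its difference of -0.25 ± 0.12 had an adjusted p of 0.124 in limma. gld1, of glycerol metabolism, rose by 2.87 in WT and 2.71 in the mutants (-0.15 ± 0.11) from a start that was 1.40 higher in the mutants. fbp1, of gluconeogenesis, gave 2.06 and 1.89 (-0.17 ± 0.15). The glucanase gene exg1 read 12.03, 12.12 and 12.10 unstressed and 9.27, 9.43 and 9.33 at 40 °C, a fall of 2.76 in WT and a change of -2.74 in the mutants (0.02 ± 0.10). In these genes WT and the mutants moved by amounts closer than the 2-fold used above. No called probe set moved at least 2-fold up in one strain group and at least 2-fold down in the other (0 cases).

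Gene lists of pathways and complexes were then counted. They were written with earlier results of these data known, so only counts and medians are given, beside 22.7% higher and 18% lower over all probe sets. Of 40 general stress genes, 21 had a lower and 3 a higher response, 7 of the former at least 2-fold, with a median of -0.26. zym1, tms1, lsd90, rds1, gst2, gst1 and ish1 were those 7. The catalase gene ctt1 and the trehalose synthesis gene tps1, chosen after their values were seen, rose by 1.45 and 0.60 in WT and 0.98 and 0.13 in the mutants from starts within 0.10 and 0.02 of WT. Of 16 heat shock and chaperone genes 4 had a lower and 2 a higher response, with a median of -0.06. hsp16 and hsp9, small heat shock genes, gave -0.95 ± 0.04 and -0.68 ± 0.04, and read 14.23, 14.18 and 14.23, and 14.31, 14.28 and 14.30, at 40 °C (WT, slm9D, hip1D). The highest value of any S. pombe probe set on those arrays was 14.31, 14.28 and 14.3, so both genes were at the top of the range there and their levels at 40 °C could not be told apart. ssa1, for an Hsp70, gave -0.36 ± 0.05, from 11.84 against 12.48 and 12.49 to 13.21 against 13.49 and 13.51.

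Histone genes were called with a higher response on all 15 probe sets of the list (11 histone genes and their regulator ams2), with none lower. hta2, an H2A gene, read 12.79, 12.85 and 12.89 unstressed and 11.46, 12.87 and 12.88 at 40 °C, where WT was the low array. The difference was 1.34 ± 0.07 (limma, adjusted p = 1.17e-11). hhf2, for H4, read 12.03 against 12.38 and 12.46 unstressed and 11.49 against 12.87 and 12.90 at 40 °C. htb1, for H2B, gave 0.94 ± 0.06 and hta1, for H2A, 0.69 ± 0.05. hhf1 and hht1, named after their values were seen, started lower in the mutants and fell there too. The hhf1 probe sets changed by -1.73 and -1.59 in WT and by -0.58 and -0.43 in the mutants. Those of hht1 changed by -1.32 and -1.49 in WT and by -0.56 and -0.63 in the mutants. In unstressed mutants limma called 8 of the 15 lower and 3 higher, beside 35.7% and 26.7% of all probe sets. The list's medians were -0.16 unstressed and 0.61 at 40 °C, with a WT response of -0.62 and a mutant response of 0.05. The least difference, 0.37, was that of hht2, an H3 gene, chosen after its value was seen, whereas the CENP-A gene cnp1 and the H2A.Z gene pht1 differed from WT by -0.67 and -0.39 unstressed and by -0.15 and 0.05 at 40 °C. Histone gene copies share nearly all of their coding sequence, so probe sets may not keep copies apart.

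**Figure D4:**
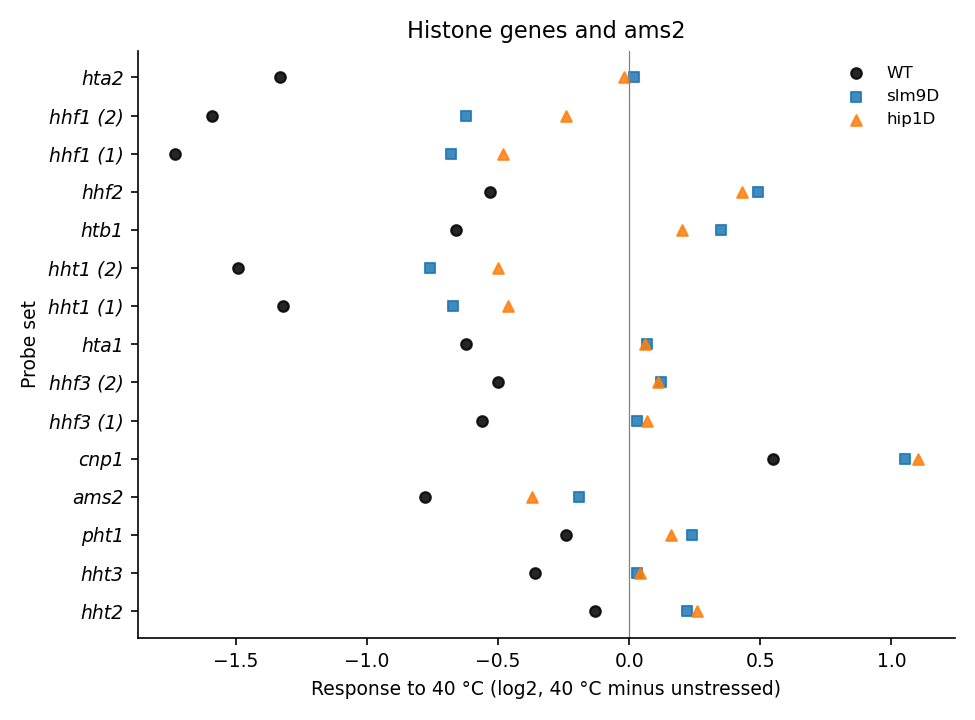
Response to 40 °C (log2, 40 °C minus unstressed) of the 15 histone and ams2 probe sets in WT, slm9D and hip1D, 1 array per condition and strain, with a number in brackets where a gene has several probe sets. The WT point lies left of both mutant points in each row, at -1.33 for hta2 against points near 0.

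Of 32 mitosis and cell separation genes 22 had a higher and 1 a lower response, with a median of 0.50 and median responses of -0.71 in WT and -0.28 in the mutants. In WT 10 of the 32 fell at least 2-fold and 0 rose as much, and the members ranged from adg1 and exg1, which fell, to klp9, a kinesin gene named after its values were seen, at 0.46 in WT and 0.10 in the mutants. adg1, a cell surface gene of cell separation, read 11.15, 10.69 and 10.70 unstressed and 7.06, 7.99 and 7.95 at 40 °C. It fell by 4.09 in WT, while in the mutants it fell by 2.72. adg3 read 9.13, 8.70 and 8.58, and then 6.41, 7.54 and 7.32, and eng1, a septum glucanase gene, 10.94, 10.09 and 9.94, and then 7.55, 8.04 and 7.98. In adg1, adg3 and eng1 the mutants began below WT and ended above it. The anillin-like gene mid2 and the anaphase activator gene slp1 gave 1.05 ± 0.10 and 0.93 ± 0.14. Of 38 G1/S and replication genes 11 had a higher and 3 a lower response (median 0.16). cdc22, for the large subunit of ribonucleotide reductase, went the other way, from 11.01, 10.84 and 10.76 to 8.85, 7.83 and 7.80, and fell by 2.15 in WT and fell by 2.98 in the mutants.

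Respiration and metal genes also held more higher than lower responses. Of 38 nuclear oxidative phosphorylation genes 21 were higher and 2 lower, none of them at least 2-fold, with a median of 0.24. Their median was -0.34 unstressed and -0.13 at 40 °C, and limma called 32 of 38 lower in unstressed mutants and 19 at 40 °C. Over all probe sets 35.7% were called lower in unstressed mutants and 35.1% at 40 °C. rip1, a complex III subunit gene, read 11.58, 10.92 and 10.92 unstressed and 11.41, 11.50 and 11.46 at 40 °C, so that the strains differed before heat and met after it. qcr7 and atp4 gave 0.74 ± 0.09 and 0.61 ± 0.08. The cytochrome c gene cyc1 differed instead at 40 °C, with 12.13 in WT against 12.54 and 12.51, after 12.80, 12.65 and 12.66. Of 20 zinc and metal genes 11 were higher and 2 lower (median 0.27), among them the iron permease gene fip1 at 1.05 ± 0.15 and zym1 as 1 of the 2 lower ones.

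The remaining lists held higher and lower responses in other proportions. Of 66 meiosis and sporulation genes 14 were higher and 22 lower (median 0.05), and limma called 46 higher in unstressed mutants and 47 at 40 °C. Over all probe sets 26.7% were called higher in unstressed mutants and 29.6% at 40 °C. spn6, a sporulation septin gene, was named after its values were seen in the start class, with 4.41 against 8.37 and 8.33 unstressed and 5.55 against 8.11 and 8.13 at 40 °C. The mutants were above WT by more than 2-fold at both temperatures. Sugar genes numbered 10 higher and 7 lower of 24, subtelomeric probe sets 7 and 5 of 15, nitrogen and mating probe sets 9 and 9 of 35, and ribosome biogenesis genes 11 and 3 of 36. Autophagy and vacuolar protease genes numbered 6 and 5 of 21, histone chaperones 2 and 4 of 19, and thiamine-repressed genes 2 and 1 of 8. In these lists the median lay between -0.04 and 0.12. isp6, a vacuolar protease gene, gave -0.70 ± 0.10 from a start 1.13 higher, and atg22, of autophagy, gave 0.67 ± 0.11 from a start 0.04 higher. spt16, a subunit of the histone chaperone FACT, gave 0.50 ± 0.10. From the same list vps71, rtt106 and chz1 went the other way, at -0.53 ± 0.12, -0.52 ± 0.12 and -0.39 ± 0.11.

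**Figure D5:**
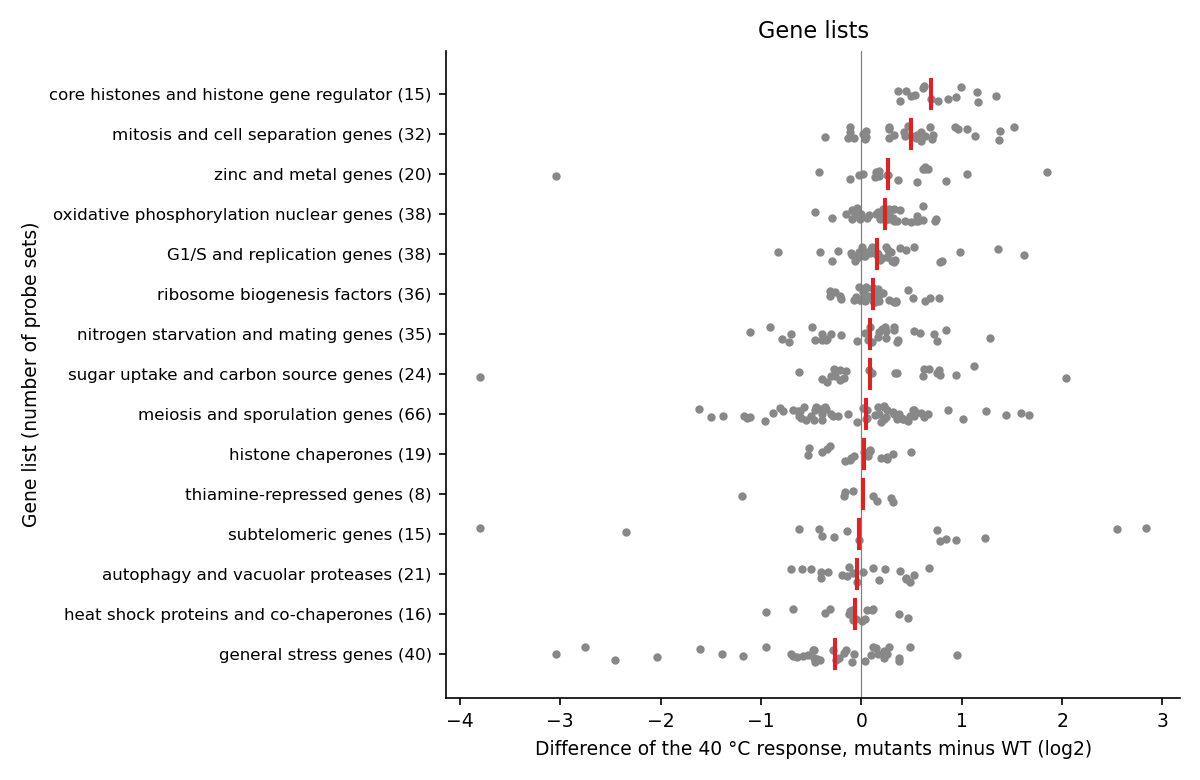
Difference of the 40 °C response (mutants minus WT, log2) of each probe set, 1 row per gene list, with the number of probe sets in brackets and the list's median as a red bar. The histone row lies right of 0 throughout, from 0.37 to 1.34, and the general stress row reaches from -3.04 to 0.95.

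The arrays after H2O2 had entered the choice of the 100 only through the spread. The sign of the mutant minus WT difference of the chosen probe sets was read there, and no choice was repeated. Of the 37 start probe sets with a lower response, the mutants' mean was above WT for 37 after H2O2 alone and for 29 after 40 °C and then H2O2. Of the 46 probe sets with a higher response placed at 40 °C, it was above WT for 33 after H2O2 alone and for 44 after 40 °C and then H2O2. Over all probe sets the share above WT was 49.2% and 48.5%. zym1 was 2.08 higher in the mutants after H2O2 alone and 0.17 after both stresses, and hta2 differed by -0.19 and 1.78. These are counts with no test, and the 4 conditions of a strain may come from 1 culture.

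The choice of a 2-fold difference left close neighbours on either side. The higher responses nearest the limit were mde7, mde3 and mug15 inside it (1.013, 1.025 and 1.035) and hhf2, qrs1 and mug155 outside (0.994, 0.977 and 0.977). The lower ones were gal10, another wtf20 probe set and mcp3 inside (-1.004, -1.004 and -1.025) and dni2, duo1 and omt2 outside (-0.997, -0.988 and -0.975).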

How the data were processed

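Biotin-labelled cRNA of 12 samples was measured on 1-colour Yeast Genome 2.0 arrays (Affymetrix). Per the submitters' processing notes, the authors used RMA and Affymetrix Expression Console 1.1, and the deposited values are linear intensity values per probe set. RMA subtracts background and equalises intensity distributions, so global shifts of RNA amount are removed and low signals compressed. log2 was taken. Genes came from the platform annotation and the RefSeq gene table (2914 probe sets by gene ID, 3 by symbol). 20 shared, 5177 unnamed, 213 control and 2601 outside probe sets were not tested. The 95th percentile of the outside ones was the background. 14 genes have several probe sets, tested separately.

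limma 3.58.1 in R 4.3.3 fitted 8 means (WT or mutant in 4 conditions) and a slm9D against hip1D term to 12 arrays (3 residual degrees of freedom, empirical Bayes with intensity trend). Benjamini-Hochberg adjustment ran over 2917 probe sets, called at 0.05. Errors are SE of that fit. On simulated data the difference of the response recovered 94% of 1.5-fold, 97% of 2-fold and 100% of 4-fold changes among 200 changed of 2917, with 3% of calls false. The simulation gave every array, WT included, independent noise of the spread fitted between the mutants. It therefore checks the fit alone and gives no rate of false calls for the real arrays.

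The members, the 15 lists and the rule for named genes were chosen with earlier results of these data known. The rule took slm9, hip1 and ura4, the 15 largest differences in each direction, up to 4 genes per list by p, up to 5 per class and direction, the 10 largest rises and falls in WT and in the mutants, opposite responses of at least 2-fold, and tms1, rds1, lsd90, pcm2, hta2 and hhf2. Promoter motifs were not analysed here. Alternatives were a dim filter, other scalings, moderation settings, arrays left out, wider spread and other limits.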

Additional observations from a re-analysis of the deposited data

Results flagged for a closer look

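The response to 40 °C differed between the mutants and WT, by the limma test of the difference itself, for 662 probe sets that were higher and 524 that were lower in the mutants (1423 of 2917 at an unadjusted p under 0.05). Among the 30 named with the largest differences, some had a response of one sign in WT and of the other sign in both mutants. The response was positive in WT and negative in slm9D and hip1D for rds1 (difference of the response -2.04) and for a wtf20 probe set (-1.94), whose mutant response of -0.06 did not pass its own test. It was negative in WT and positive in both mutants for ubp11 (1.54), fet4 (1.6), mcm5 (1.62), cfr1 (1.67), meu7 (1.67), cdc1 (1.69), hem1 (2.02) and ght6 (2.04). str3 had the same signs (1.85 from the signals as measured, at least 1.78 with the background in place of the dim WT signal at 40 °C), and its mutant response of 0.15 did not pass. Each of these rests on 1 WT array unstressed and 1 at 40 °C. Of these 11 genes, ubp11, cfr1 and hem1 stayed called when the spread also held the change of the departure of WT between the H2O2 conditions. That spread can hold a part of a 40 °C difference itself, so staying called does not rank them above the others.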

How the results depend on the processing

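The mutant strains were matched across conditions by the slm9D against hip1D term. The labels give no replicate numbers for any further pairing, with 1 array per strain and condition. The widest change came from the spread. When it also held how WT departed from the mutants in the H2O2 conditions (4 residual degrees of freedom), the median SE of the difference rose from 0.11 to 0.19, and 14 higher and 1 lower responses were called (539 at an unadjusted p under 0.05), all 15 among the original calls. The calls were then 298 higher and 381 lower unstressed, 433 and 449 at 40 °C, 416 and 551 for the WT response, and 661 and 696 for the mutant response. Higher responses numbered 1 at the start, 7 at 40 °C and 0 at both, lower ones 0, 0 and 0. Rises in WT were called smaller or larger in the mutants for 0 and 0, falls for 2 and 0, and those chosen in the mutants for 0 and 3 (rises) and 0 and 0 (falls). Quantile normalization on S. pombe probe sets gave 562 higher and 624 lower calls, 20 lower responses at the start, 4 at 40 °C and 12 at both, and 33 mutant falls called larger. It turned the sign of meu10 (-0.12), meu13 (-0.33) and ght6 (-0.10) unstressed and of mik1 at 40 °C (-0.31). Equal medians outside S. pombe gave 11 mutant falls called smaller. The cause was not tested. These scalings moved the median difference by -0.05 and -0.02.

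With 1.5-fold as the limit the start, 40 °C and both classes held 59, 151 and 32 higher and 89, 22 and 22 lower probe sets. The calls of smaller and larger were then 211 and 23 of WT rises, 204 and 21 of WT falls, 79 and 128 of mutant rises and 39 and 55 of mutant falls. Shares of 0.25 and 0.75 put 9 higher responses at both. Leaving out each mutant array in turn gave 539 to 711 higher and 423 to 551 lower responses, 5 to 10 higher at the start, 3 to 5 higher and 8 to 11 lower at both, 3 to 6 WT rises called larger and 3 to 6 WT falls called larger. The extremes came without unstressed hip1D (10), without hip1D at 40 °C (5 and 11), and, for the calls of larger, without unstressed slm9D (3 and 3) or, for WT rises, without slm9D at 40 °C (3). Leaving out a WT array leaves no comparison. The other counts stayed within 1.5 times under these, the dim filter, no trend, robust moderation and the 6 arrays alone. The number of arrays limits all values, and signals near background or at the top of the range limit wtf10, str3, tlh2, hsp16 and hsp9.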

Other observations

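Outside the tested probe sets, 2058 of the 5177 without a gene name were above background on all 12 arrays. Of these, 44 had a difference of the response at least 2-fold higher in the mutants and 51 at least 2-fold lower, as values with no test. None of the 17 shared S. pombe probe sets or of the 58 outside ones above background did (0 and 0 in each direction).

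The 15 genes called with the wider spread included hem1, cfr1 and ubp11 of the largest differences. All 15 were vph1, def1, exo2, sec72, sec231, sec73, bit61, sap1, hrp3, tit1, ilv1, ubp11, cfr1 and hem1 with a higher and mae2 with a lower response. sec231, a coat protein gene of vesicles leaving the endoplasmic reticulum, and sec72 and sec73, exchange factor genes of Golgi traffic, gave 0.89, 0.85 and 1.06, and vph1, for a subunit of the vacuolar proton pump, 0.73. hrp3, a chromatin remodeller gene, gave 1.24, tit1, for a tRNA-modifying enzyme, 1.33, and mae2, the malic enzyme gene, -0.69. They were named after their values were seen.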
